A study of Mus musculus with 24 samples.

Results

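The assays described here read both mature arms of a pair of mouse microRNA hairpins: miR-324-3p, miR-324-5p, miR-345-3p and miR-345-5p. They are 4 of 584 miRNA assays on the cards, taken by their names. The 2 hairpins were chosen by their Ct values in the 4 groups, in which the arms of one hairpin had been seen to differ. Their levels and arm differences are therefore given as descriptions, without p-values. The study compared 3 mouse cell lines with CT-BM, primary bone marrow cells flushed from mouse femur and tibia. L-1210 is a lymphocytic leukaemia line and M1 a myeloid leukaemia line, both grown in suspension. PYS is a teratocarcinoma line of adherent cells. Each group had 3 replicates, the lines were taken at passage 3, and no group carried a treatment or an engineered allele. Each tumour type stands on 1 line, and the labels give neither strain nor age of the mice. The labels describe CT-BM as cells in suspension culture and the design text as flushed marrow, and the title calls them stem cells, so their culture state is not settled. The labels do not say that replicates were separate cultures or animals, so p-values below cover the spread among replicates alone, and this may be a technical spread.

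A miRNA hairpin is cut by Drosha and then Dicer to a short duplex, and usually the strand of one arm is loaded into an Argonaute protein while the other is lost. The loaded strand recognises its targets mainly through its seed, bases 2 to 8, so the 2 arms of a hairpin act on different mRNAs. The arm that dominates can differ between tissues. For miR-324, uridylation of the precursor by TUT4 and TUT7 is known to move the Dicer cut and to favour the 3p arm. miR-324-5p is known as a repressor of Hedgehog signalling, through Smo and Gli1. miR-345 has been studied mostly in human tumours, where it is often described as lowered.

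The mature sequences are shown because the 4 arms carry 4 different seeds, in capitals. They are RefSeq's, read 5′ to 3′ on assembly GRCm38.p6, and all 4 arms matched an entry by name.
mmu-miR-324-3p: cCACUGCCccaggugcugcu
mmu-miR-324-5p: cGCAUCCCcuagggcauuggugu
mmu-miR-345-3p: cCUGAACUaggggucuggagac
mmu-miR-345-5p: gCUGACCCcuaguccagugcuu
The miR-324 arms lie on the plus strand at chr11:70012095-70012114 (3p, 20 bases) and chr11:70012060-70012082 (5p, 23 bases). The miR-345 arms lie on the plus strand at chr12:108837027-108837048 (3p) and chr12:108836989-108837010 (5p), each of 22 bases. None of the 1679 mature mouse miRNAs in the RefSeq table had the seed of another arm: each of the 4 seeds occurred in 0 other entries. The 5p arms of the 2 hairpins shared the 7-base run CCCCUAG, which starts at position 6 in both, partly inside the seed.

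The hairpins are shown to place the arms, here in capitals, on the precursor.
Mir324: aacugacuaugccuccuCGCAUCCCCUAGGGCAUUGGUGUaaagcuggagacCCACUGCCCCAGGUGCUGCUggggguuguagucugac
Mir345: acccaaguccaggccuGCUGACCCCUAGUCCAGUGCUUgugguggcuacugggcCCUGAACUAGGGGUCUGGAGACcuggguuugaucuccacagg
Mir324 spans 89 bases at chr11:70012043-70012131 and overlaps the protein-coding gene Acadvl, which encodes a very long-chain acyl-CoA dehydrogenase of mitochondria. Mir345 spans 96 bases at chr12:108836973-108837068. The longest stretch over which the miR-345 arms could pair by strict complementarity was 10 bases (ACUAGGGGUC in the 3p arm), against 5 bases for the miR-324 arms (UGCCC in the 3p arm).

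The levels came from TaqMan low density arrays, microfluidic cards on which each assay is a quantitative PCR well. The cycle threshold (Ct) is the PCR cycle at which the signal crosses a set level, so 1 cycle earlier stands for about 2-fold more template. All 4 arms were single wells on card A. A level is given as negative delta Ct: the mean Ct of 3 control RNAs (MammU6, snoRNA135, snoRNA202) minus the Ct of the arm, all from one card run, a log2 scale on which higher means more RNA. A well that stayed undetermined, or crossed after cycle 35, was given a Ct of 35 and taken as not detected, so folds against them are lower bounds. Assays amplify with different efficiency, so the level of one arm cannot be set against that of another, and only changes between groups are read. The threshold for a call was a limma p under 0.05 after Benjamini-Hochberg adjustment over all assays tested in that comparison, together with a change of at least 2-fold. Card runs held 367 to 380 wells, and 48.3% of all wells were undetermined.

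Marker miRNAs were set against the labels. All 6 pluripotent-cell miRNAs listed, such as miR-302a and miR-294, were detected in every PYS replicate (mean Ct 15.66 to 20.45). In each of the other groups, 2 of the 6, not the same in every group, were detected in all replicates with a well, at mean Ct 28.03 or later. The 4 blood-cell miRNAs were detected in L-1210 (mean Ct 17.8 to 26.33), M1 (14.67 to 22.92) and CT-BM (13.48 to 23.12). In PYS, 3 of the 4 were detected, at mean Ct 25.03 to 31.99, and miR-142-5p was not. CT-BM alone had all 5 stromal miRNAs (mean Ct 21.23 to 27.83, against 2 of 5 in each line) and both assayed erythroid miRNAs (20.78 and 24.78) in every replicate with a well. miR-126-3p, an endothelial marker also found in blood progenitors, was detected in all 4 groups. The part of these other cell types in the results below was not tested. In whole populations such as these, fewer cells of a type and less RNA per cell cannot be told apart.

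miR-324-3p was detected at similar Ct in the 3 lines and did not amplify in bone marrow. Its Ct was 22.99, 21.96 and 21.83 in L-1210, 22.25, 22.67 and 22.02 in M1, and 21.80, 21.24 and 21.95 in PYS. In CT-BM it was undetermined in replicates 2 and 3, and replicate 1 had no value for it. Every line replicate crossed more than 10 cycles before the limit, and no CT-BM well crossed at all. Its level averaged −8.45 ± 0.75 in L-1210, −9.86 ± 0.51 in M1 cells and −7.79 ± 0.09 in PYS (SD, n = 3 each), against at most −20.04 in CT-BM (n = 2). The order was PYS, L-1210, M1 and CT-BM. The ranges of PYS and L-1210 overlapped, those of L-1210 and M1 did not, and CT-BM lay below all 3 lines.

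Set against CT-BM, miR-324-3p was at least 3076-fold higher in L-1210, at least 1158-fold higher in M1 and at least 4849-fold higher in PYS. These bounds follow from the Ct limit and grow or shrink with it. Of 108 assays that crossed before cycle 25 in every replicate of the 3 lines, 2 had no detected CT-BM replicate. These were miR-324-3p and the rat-named miR-532-5p assay, each with wells in 2 CT-BM replicates. Because miR-324-3p was chosen with its values known, its place here is a description only. The mouse-named miR-532-5p assay amplified in all 3 CT-BM replicates, at a mean Ct of 22.4, where the rat-named one had no signal in 2 wells. No second assay of miR-324-3p was used here. The corresponding counts were 1 of 98 for L-1210, 2 of 94 for M1 and 5 of 111 for PYS, where each group in turn was the one without signal.

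miR-324-5p, the other arm of the same hairpin, was detected in all 12 replicates. Its Ct was 24.70, 23.99 and 23.51 in L-1210, 23.99, 23.93 and 23.20 in M1, 20.43, 19.69 and 20.95 in PYS, and 26.23, 26.61 and 26.98 in CT-BM. The PYS wells crossed earliest and the CT-BM wells latest, with no overlap in Ct between those groups and any other. The level averaged −10.26 ± 0.59 in L-1210, −11.25 ± 0.37 in M1, −6.49 ± 0.26 in PYS and −11.80 ± 0.28 in CT-BM (SD, n = 3 each). The order was PYS, L-1210, M1 and CT-BM, and M1 and CT-BM did not differ beyond their spread.

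The log2 difference of miR-324-5p from CT-BM was 1.54 ± 0.31 in L-1210 (SE, 2.90-fold), 0.54 ± 0.31 in M1 (1.46-fold) and 5.31 ± 0.31 in PYS (39.7-fold). It passed the threshold for a call in L-1210 and PYS, and in M1 it did not. The value for L-1210 depended on the control RNA: over 6 scalings it lay between −0.10 (snoRNA202 alone) and 3.28 (MammU6 alone). In PYS it lay between 4.39 and 6.82, and in M1 between 0.23 and 2.94. The controls themselves differed between groups. The mean Ct of snoRNA202 was 13.23 in L-1210, 13.19 in M1 cells and 14.33 in PYS, against 15.86 in CT-BM, while that of MammU6 was 10.82, 7.91 and 10.65 in the same lines, against 10.08 in CT-BM.

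**Figure D1:**
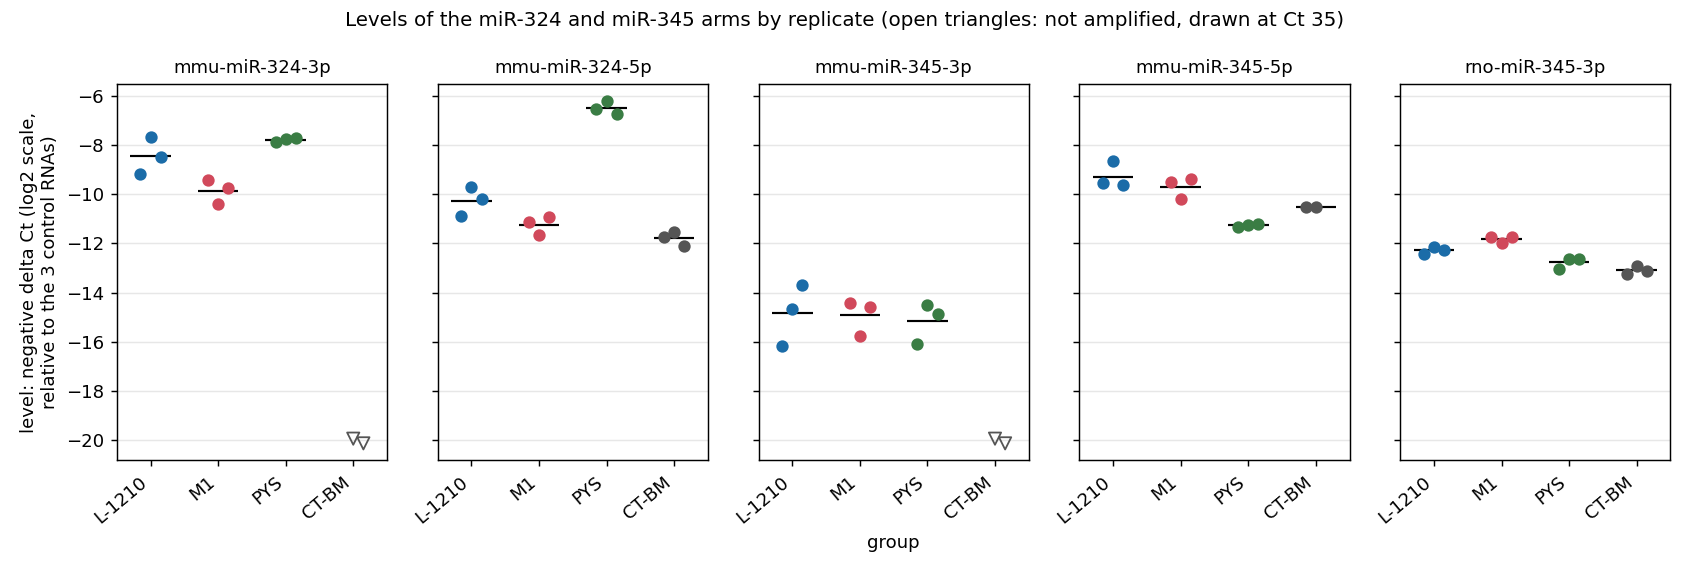
Level of each arm, and of the rat-named miR-345-3p assay, in every replicate (y axis, negative delta Ct on a log2 scale; x axis, group). Filled points are amplified wells, open triangles wells that did not amplify, drawn at Ct 35, and lines are means of amplified wells. miR-324-3p and the mouse-named miR-345-3p have no amplified well in CT-BM, miR-324-5p is highest in PYS, and the rat-named miR-345-3p assay amplified in all 12 replicates.

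miR-345-3p, read by its mouse-named assay, was the latest of the 4 arms to cross and the most variable. Its Ct was 29.99, 28.95 and 27.01 in L-1210, 27.27, 28.03 and 26.86 in M1, and 29.99, 27.99 and 29.11 in PYS. In CT-BM replicates 2 and 3 were undetermined and replicate 1 had no value. The 3 lines overlapped one another and CT-BM stood below them. The level averaged −14.85 ± 1.25 in L-1210, −14.93 ± 0.73 in M1 cells and −15.16 ± 0.82 in PYS (SD, n = 3 each), against at most −20.04 in CT-BM (n = 2). The SD in L-1210 compares with a median SD of 0.43 over the assays detected in all 3 L-1210 replicates. Against CT-BM, the mouse-named assay gave at least 36.6-fold in L-1210, at least 34.5-fold in M1 and at least 29.4-fold in PYS.

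A second assay for miR-345-3p, which carries the rat name, did amplify in bone marrow. It was no member of the set and its target sequence was not used here. Because it was picked after its values were seen, its p-values and call are given as description only. Its Ct was 26.24, 26.42 and 25.59 in L-1210, 24.60, 24.26 and 23.99 in M1, 26.93, 26.11 and 26.86 in PYS, and 27.77, 27.97 and 28.00 in CT-BM. All 12 wells amplified, each earlier than the mouse-named assay in the same replicate where that one gave a value. The log2 difference of rno-miR-345-3p from CT-BM was 0.83 ± 0.20 in L-1210 (SE, 1.77-fold, limma adjusted p = 0.00227, below the 2-fold minimum), with all 3 replicates above those of CT-BM. In M1 it was 1.27 ± 0.20 (2.42-fold, limma adjusted p = 7.99e-05, called), again with no overlap. In PYS rno-miR-345-3p differed from CT-BM by 0.34 ± 0.20 (1.26-fold, limma adjusted p = 0.137), and the groups overlapped.

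The mouse-named and the rat-named assay thus gave bounds of at least 29.4-fold or more and measured differences of 2.42-fold or less for miR-345-3p in the same comparisons. Assays for 31 miRNAs stood on the cards under both a mouse and a rat name. In CT-BM, the rat-named assay was detected in every replicate and the mouse-named one in none for 3 of the 31, and the reverse held for 5. The counts in the lines were 4 and 3 in L-1210, 1 and 4 in M1, and 2 and 4 in PYS. Both assays of a pair were detected throughout for 7 pairs in L-1210, 6 in M1, 9 in PYS and 8 in CT-BM. Which of the assays follows the mouse miR-345-3p more closely was not tested.

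miR-345-5p was detected in every well that gave a value. Its Ct was 23.38, 22.94 and 22.98 in L-1210, 22.34, 22.46 and 21.65 in M1, and 25.22, 24.74 and 25.44 in PYS. In CT-BM it was 25.03 and 25.60 in replicates 1 and 2, and replicate 3 had no value. The leukaemia lines crossed earlier than the other 2 groups, whose Ct overlapped. The level averaged −9.29 ± 0.55 in L-1210, −9.69 ± 0.44 in M1 cells and −11.26 ± 0.05 in PYS (SD, n = 3 each), against −10.53 ± 0.01 in CT-BM (n = 2). The order was L-1210, M1, CT-BM and PYS. L-1210 and M1 did not differ beyond their spread, and the levels of M1 and CT-BM, and of CT-BM and PYS, did not overlap.

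The log2 difference of miR-345-5p from CT-BM was 1.24 ± 0.33 in L-1210 (SE, 2.36-fold), 0.84 ± 0.33 in M1 (1.79-fold) and −0.73 ± 0.34 in PYS (1.66-fold lower). Of these, the L-1210 value passed the threshold for a call. Without L-1210 replicate 2 it was 0.93, under the 2-fold minimum, and without M1 replicate 2 the M1 value was 1.09 and was called. Over the 6 scalings it lay between −0.32 and 3.08 in L-1210, between 0.60 and 2.89 in M1 and between −1.52 and 0.72 in PYS, so the sign depended on the scaling in L-1210 and in PYS.

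Counted over the 4 arms, 4 were called higher in L-1210 than in CT-BM (3 without L-1210 replicate 2), 2 in M1 and 3 in PYS, with the non-amplified 3p arms of CT-BM in each count. Across all assays tested, 22.5% were called higher and 45.6% lower in L-1210, 25.2% higher and 44.3% lower in M1, and 39.8% higher and 38.7% lower in PYS. Calls in either direction made up 68.2% for L-1210, 69.5% for M1 and 78.5% for PYS. The arms were chosen with these values known, so the counts are set side by side and nothing is read from them. The median log2 difference of all tested assays from CT-BM was −0.82 in L-1210, −0.59 in M1 cells and 0.08 in PYS. Over the 6 scalings this median moved between −2.47 and 1.05, between −1.03 and 0.46, and between −0.84 and 1.84 in these lines.

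A scaling by controls or by a common mean shifts all assays of a card run together. Values relative to that moving median therefore vary less by construction, and no stability particular to the 5p arms is read from them. miR-324-5p stood above the median assay by 2.36 in L-1210 (2.23 to 2.83 over the scalings), 1.14 in M1 (0.75 to 2.48) and 5.23 in PYS (4.98 to 6.18), all on the log2 scale. miR-345-5p stood above it by 2.07 in L-1210 (1.74 to 2.66) and 1.43 in M1 (0.84 to 2.43). In PYS miR-345-5p stood at −0.81 relative to the median assay, with a range of −1.26 to 0.28.

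**Figure D2:**
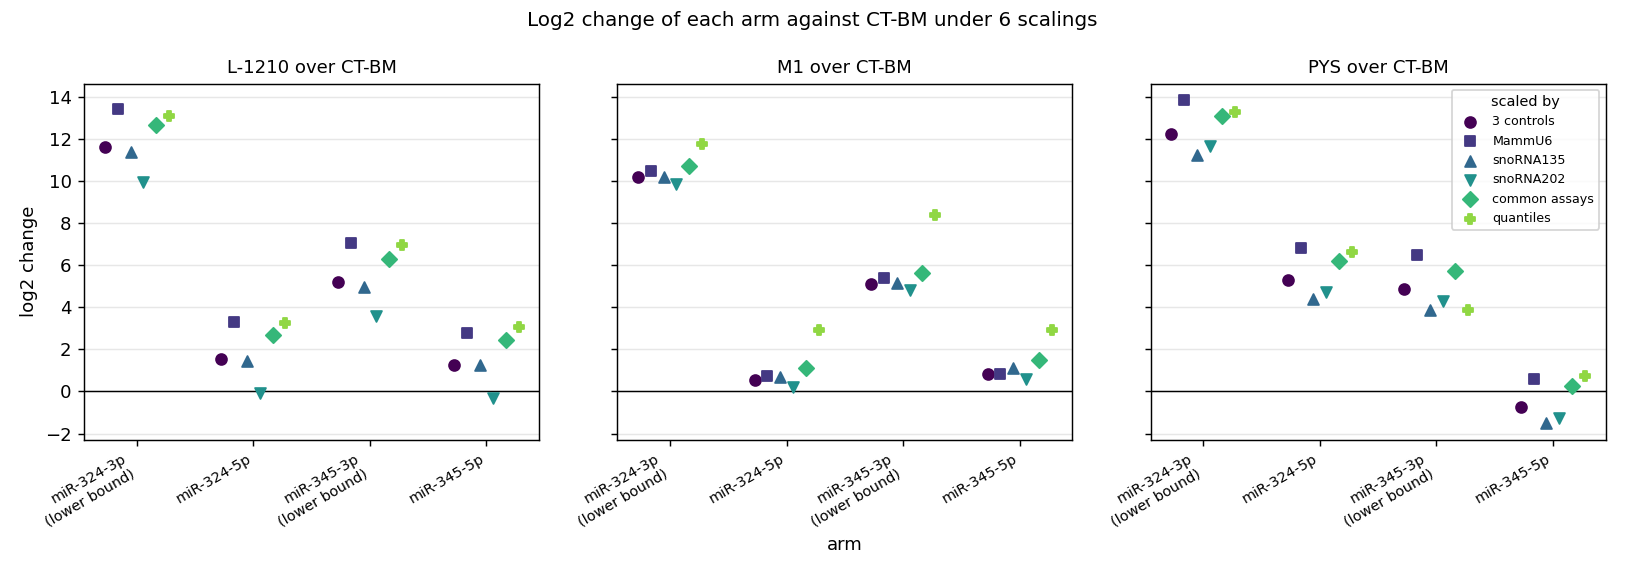
Log2 change of each arm in L-1210, M1 and PYS over CT-BM (y axis) for the 4 arms (x axis) when levels are scaled by the mean of the 3 controls, by each control alone, by the mean of those assays that all 12 replicates detected, or by quantiles. The 3p values are lower bounds. miR-324-5p stays above 4 in PYS under each of the 6 scalings, and the 5p arms cross 0 in L-1210 with snoRNA202 alone.

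Between the lines, PYS differed from both leukaemia lines in the 5p arms, and in opposite directions for the 2 hairpins. miR-324-5p was higher in PYS than in L-1210 by 3.77 ± 0.31 (SE, log2, 13.7-fold) and higher than in M1 by 4.77 ± 0.31 (27.2-fold). miR-345-5p was lower in PYS than in L-1210, with a log2 difference of −1.97 ± 0.30 (3.91-fold lower), and lower than in M1, with −1.57 ± 0.30 (2.96-fold lower). Each of these 4 differences kept its sign over the 6 scalings, with ranges of 2.96 to 4.82 and 3.68 to 6.09 for miR-324-5p, and of −2.78 to −0.93 and −2.62 to −0.24 for miR-345-5p. The miR-345-5p difference was not called against L-1210 with snoRNA202 alone (−0.93) or against M1 with MammU6 alone (−0.24).

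Of the 3p arms, that of miR-324 was called in PYS over M1 and in L-1210 over M1. miR-324-3p was higher in PYS than in M1 by 2.07 ± 0.36 (SE, log2, 4.19-fold), with a range of 1.02 to 3.39 over the scalings. Its difference between PYS and L-1210 was 0.66 ± 0.36 with overlapping groups, and was called, at 1.04, without L-1210 replicate 2. In L-1210 it exceeded M1 by 1.41 ± 0.36 (2.66-fold), with a range of 0.09 to 2.97 and no call at the lower end, with snoRNA202 alone. For miR-345-3p the differences were −0.31 ± 0.60 for PYS over L-1210, −0.23 ± 0.60 for PYS over M1 and 0.09 ± 0.61 for L-1210 over M1, and all 3 pairs of groups overlapped. Over the scalings these differences ranged from −3.06 to 0.73, from −4.51 to 1.09 and from −1.45 to 1.64, and quantile normalization gave the lowest value of each and called all 3. PYS over M1 was also called with snoRNA135 alone (−1.28) and L-1210 over M1 with snoRNA202 alone (−1.23). The rat-named miR-345-3p assay gave rno-miR-345-3p log2 differences of −0.49 ± 0.21, −0.93 ± 0.20 and −0.45 ± 0.20 in the same comparisons, none past the 2-fold minimum.

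Neither 5p arm was called between L-1210 and M1. miR-324-5p was higher in L-1210 than in M1 by 0.99 ± 0.31 (SE, log2, 1.99-fold), just short of 2-fold and without overlap, and its range over the scalings was −0.32 to 2.55. Leaving out L-1210 replicate 1, M1 replicate 1 or M1 replicate 3 gave 1.31, 1.04 and 1.15, each called. miR-345-5p differed by 0.40 ± 0.30, with overlap. In PYS against L-1210, 1 arm was called higher (45.9% of all assays tested) and 1 lower (27.6%). In PYS against M1, 2 arms were called higher (46% of assays) and 1 lower (27.3%), and in L-1210 against M1, 1 was called higher (25.2%) and 0 lower (30.7%). Calls in either direction made up 73.5%, 73.3% and 55.9% of all assays in these comparisons.

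The arm difference, Ct of the 5p assay minus Ct of the 3p assay in the same replicate, removes the control RNAs because both wells share a card. A higher value means more 3p relative to 5p. Its zero has no meaning, since the efficiencies differ, so only its change between groups is described. For miR-324 it was −1.37, −1.56 and −0.996 in PYS, against 1.72, 2.03 and 1.68 in L-1210 and 1.73, 1.26 and 1.18 in M1. All 3 PYS replicates lay below all 6 leukaemia replicates, and the leukaemia lines overlapped. The means were −1.31 ± 0.29 in PYS, 1.81 ± 0.19 in L-1210 and 1.39 ± 0.30 in M1 (SD, n = 3 each). In CT-BM, the difference was at most −8.39 and −8.02 in replicates 2 and 3, since the 3p arm was not detected.

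The balance of the miR-324 arms in PYS was thus shifted toward 5p by 3.12 ± 0.25 cycles relative to L-1210 and by 2.70 ± 0.24 cycles relative to M1 (SE from limma). Against CT-BM, all 3 lines were shifted toward 3p, by at least 10.0 cycles in L-1210, 9.60 cycles in M1 and 6.90 cycles in PYS. Between L-1210 and M1 the miR-324 difference changed by 0.42 ± 0.26 cycles. In PYS the 5p arm was 13.7-fold above L-1210 while the 3p arm was 1.58-fold above it, so the 5p arm differed more.

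For miR-345 with its mouse-named 3p assay, the arm difference was −4.77, −3.26 and −3.67 in PYS, against −6.61, −6.01 and −4.04 in L-1210 and −4.93, −5.57 and −5.21 in M1. PYS overlapped L-1210 and lay just above M1. The means were −3.90 ± 0.78 in PYS, −5.55 ± 1.35 in L-1210 and −5.24 ± 0.32 in M1 (SD, n = 3 each), and replicate 2 of CT-BM, alone in having both wells, gave at most −9.40. The change was 1.65 ± 0.64 cycles for PYS over L-1210, 1.34 ± 0.65 for PYS over M1 and −0.32 ± 0.64 for L-1210 over M1 (SE). The sign of the PYS changes was thus opposite to that of miR-324. Quantile normalization, which does not cancel between the arms, turned both PYS changes of miR-345 negative, to −0.71 and −2.34 cycles, while those of miR-324 stayed negative.

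With the rat-named 3p assay, chosen after the values were seen, the miR-345 arm difference averaged −2.98 ± 0.44 in L-1210, −2.13 ± 0.29 in M1 cells and −1.50 ± 0.18 in PYS (SD, n = 3 each), against −2.55 ± 0.26 in CT-BM (n = 2). PYS lay above the other 3 groups without overlap. Relative to CT-BM it changed by −0.43 ± 0.32 cycles in L-1210, 0.42 ± 0.25 cycles in M1 and 1.05 ± 0.21 cycles in PYS, with SE from the 2 groups' own spread. The bounds from the mouse-named assay, at least 3.85, 4.16 and 5.50 cycles in L-1210, M1 and PYS, were larger than each of these.

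**Figure D3:**
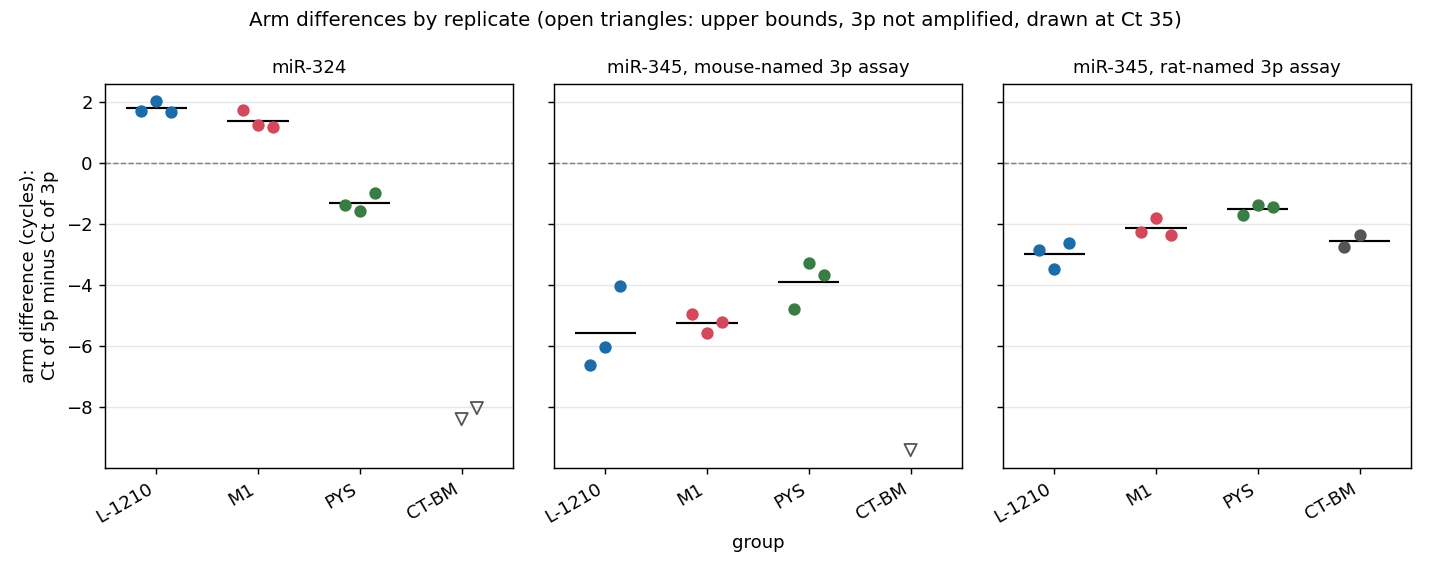
Arm difference (y axis, cycles, Ct of 5p minus Ct of 3p on the same card) in every replicate by group (x axis) for miR-324, for miR-345 with the mouse-named 3p assay and for miR-345 with the rat-named 3p assay. Filled points are measured, open triangles are upper bounds where 3p did not amplify, and lines are means. For miR-324 the PYS replicates lie between −1.56 and −0.996 and the leukaemia replicates between 1.18 and 2.03.

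Other hairpins were measured in the same way, with Ct of the star minus Ct of the guide for pairs so named. Of 140 mouse hairpins with assays for both arms, 45 had both on one card, and both arms of 9 or 10 of them were detected throughout the groups under comparison. With miR-324 and miR-345 among them, the arm difference was called as changed, at 1 cycle or more, in 40% of these hairpins between PYS and L-1210, in 60% between PYS and M1 and in 0% between L-1210 and M1. Without both, 3 of 8 (37.5%), 5 of 8 (62.5%) and 0 of 8 were called in limma, and 2 of the 8 had an unadjusted p under 0.05 between L-1210 and M1. The miR-324 change was the largest of the 10 in both PYS comparisons, where the median size over the 8 other hairpins was 0.93 cycles against L-1210 and 1.36 cycles against M1. Because miR-324 was chosen with this difference known, its rank is a description only. Hairpins with an arm not detected throughout the groups compared, such as miR-342 below, are outside the 10 and were not ranked. In PYS over L-1210, miR-342-3p was higher by 9.23 and miR-342-5p by at least 9.45 (log2), which does not order miR-342 against miR-324. In PYS over M1, miR-342-3p was higher by 6.24 and miR-342-5p by at least 10.80. At the Ct limit used, the miR-342 bound against M1, toward 5p, was thus larger than the measured miR-324 change. This bound moves with the Ct limit. The miR-345 change ranked 4 of 10 in PYS over L-1210 and 6 of 10 in PYS over M1. Between L-1210 and M1, miR-324 ranked 6 and miR-345 ranked 7 of 10, with a median size of 0.50 cycles over the 8 others.

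**Figure D4:**
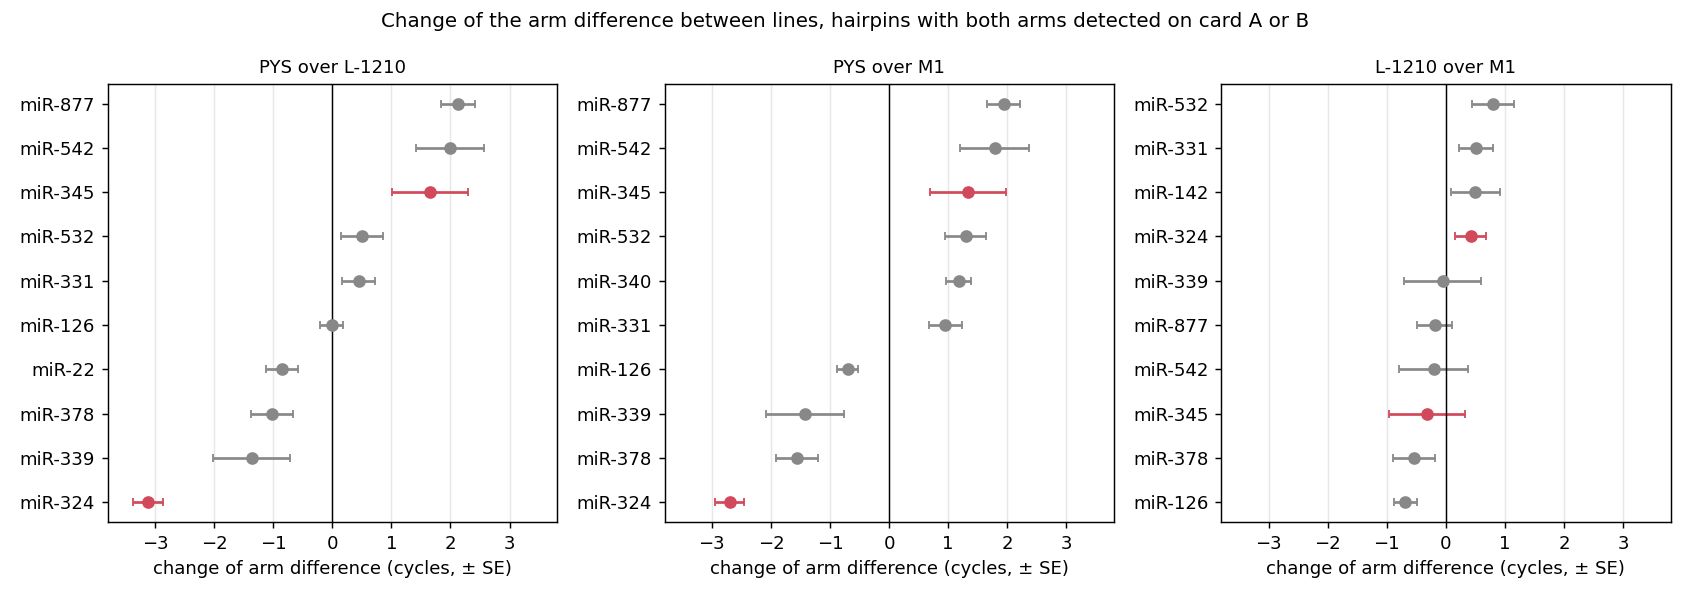
Change of the arm difference (x axis, cycles, error bars are SE from limma) for each of the 10 hairpins (y axis) with both arms detected in PYS and L-1210, in PYS and M1, and in L-1210 and M1. miR-324 and miR-345 are in red and the other hairpins in grey. Among the hairpins drawn, miR-324, chosen with its values known, has the largest shift, toward 5p, in both PYS comparisons.

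Against CT-BM, neither hairpin could be fitted, because a 3p arm was missing, and other hairpins were called in 20% of cases for L-1210, 11.1% for M1 and 70% for PYS. In L-1210, miR-139 and miR-126 were shifted toward 5p by −2.00 ± 0.33 and −1.13 ± 0.21 cycles (SE, limma adjusted p = 0.00161 for both). In M1, miR-532 was shifted toward 5p by −1.60 ± 0.35 cycles (adjusted p = 0.00691 in limma). In PYS, miR-542 was shifted toward 3p by 3.02 ± 0.57 cycles (limma adjusted p = 0.000425) and miR-339 toward 5p by −2.72 ± 0.64 cycles (limma adjusted p = 0.00174). Of the pairs named guide and star, miR-877 was shifted toward the guide by 2.37 ± 0.28 cycles (limma adjusted p = 2.81e-05) and miR-378 toward the star by −1.50 ± 0.35 cycles (limma adjusted p = 0.00174). The smallest bound for miR-324, 6.90 cycles in PYS (3.90 with a Ct limit of 32), was larger than each of these measured shifts. Other hairpins with an arm not detected in CT-BM, such as miR-342 below, were not fitted either. For miR-342 in PYS, 3p changed by −0.28 and 5p by at least 8.44 (log2). At the same Ct limit its bound, toward 5p, was thus larger than the 6.90 cycles of miR-324. Bounds do not order the true shifts, so miR-324 has no rank among all hairpins. For miR-345 the order against the measured shifts depended on the Ct limit. Its bounds in L-1210, M1 and PYS became 0.85, 1.16 and 2.50 cycles with a limit of 32.

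The neighbouring miRNA genes had patterns of their own across the groups. Mir195a and Mir497, a known cluster of the miR-15 family, lie 222.9 and 222.6 kb from Mir324. miR-195 averaged −9.83 ± 0.28 in L-1210, −6.24 ± 0.45 in M1 cells and −5.98 ± 0.22 in PYS, against −5.24 ± 0.19 in CT-BM (negative delta Ct, SD, n = 3 each). It was lower than in CT-BM by 24.2-fold in L-1210 (log2 −4.60 ± 0.26 SE, limma adjusted p = 3.24e-09) and by 2.00-fold in M1 (log2 −1.001 ± 0.257, limma adjusted p = 0.00355). In PYS miR-195 differed by −0.74 ± 0.26, short of 2-fold (limma adjusted p = 0.0176). miR-497 was not detected in L-1210 or M1, and was higher in PYS than in CT-BM by 2.55-fold (log2 1.35 ± 0.29 SE, limma adjusted p = 0.0011).

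Mir342 lies 178.3 kb from Mir345. miR-342-3p averaged −13.29 ± 0.45 in L-1210, −10.31 ± 0.16 in M1 cells and −4.07 ± 0.28 in PYS, against −3.79 ± 0.08 in CT-BM (negative delta Ct, SD, n = 3 each). It was lower than in CT-BM by 725-fold in L-1210 (limma adjusted p = 1.68e-12) and by 91.6-fold in M1 (limma adjusted p = 5.44e-11). In PYS the difference was −0.28 ± 0.25 (log2, SE, limma adjusted p = 0.307). miR-342-5p was detected in PYS and in no other group, at least 348-fold above CT-BM, a bound set by the Ct limit. Its hairpin is thus another whose arms parted between the groups. In PYS over CT-BM, miR-342-3p changed by −0.28 (log2) while miR-342-5p was higher by at least 8.44.

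The assays whose levels ran most like each arm were sought among 175 mouse-named assays detected in all 12 replicates. These correlations describe replicates that share cards, controls and group structure, and carry no test. miR-324-5p was most like miR-361 (Pearson r 0.955, Spearman rho 0.979, 12 replicates), miR-301a (r 0.953) and miR-7a (r 0.95). miR-345-5p was most like miR-192 (r 0.945, rho 0.918, 11 replicates), miR-194 (r 0.88) and miR-29a* (r 0.869). For the 3p arms the Pearson values rest largely on the CT-BM replicates at the limit: miR-27a* and miR-700 came first for both, with r 0.985 and 0.971 for miR-324-3p and 0.926 and 0.91 for miR-345-3p, but rho 0.7 and 0.645, and 0.245 and 0.482. The third assays were miR-132 for miR-324-3p (r 0.955, rho 0.864) and miR-671-3p for miR-345-3p (r 0.888, rho 0.573).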

How the data were processed

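Per the labels, RNA was isolated by the authors (mirVana), preamplified after reverse transcription, and run on TaqMan cards A and B in a 7900HT for 40 cycles. The deposited table holds Ct values, unnormalized PCR cycles, per the file headers, and Ct Avg, checked as the mean of an assay's wells within 0.001 cycles in 7000 of 7000 values. It had 8969 wells, 4334 of them undetermined. Software and any Ct threshold setting are not given in the sources used here. The 24 GEO samples are 12 replicates on 2 cards, and 0 columns of values were unused.

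Negative delta Ct was computed in Python 3.11.15 (numpy 2.4.6, pandas 2.3.3). The model, with a mean for each of the 4 groups, was fitted in R 4.3.3 by lmFit and eBayes of limma 3.58.1. Absent wells were not imputed. An assay was tested if detected in every replicate that had a well for it, in at least 1 of the 2 groups compared. An arm difference was fitted if both arms were detected in every replicate of both groups that had wells for both arms. The fit was tested on simulated data. Precision is limited by the number of replicates, and no read depth applies.

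The members, marker lists, comparisons and alternatives were chosen with earlier results of these data known. The text names, besides the arms, the 3 assays most like each, the 2 hairpins shifted most each way against CT-BM among those called, and assays of miRNA genes within 500 kb. Other hairpins and the rat-named assays were named after their values were seen. Alternatives were other scalings, Ct limits of 32 and 40, other detection filters, other fits and leaving out replicates. Same-numbered replicates did not deviate together: over 187 assays, 3 of 18 pairs had a correlation over 0.1 (−0.453 to 0.334). Figures were drawn with matplotlib 3.10.9.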

Additional observations from a re-analysis of the deposited data

Results flagged for a closer look

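The arm difference of miR-324 (Ct of 5p minus Ct of 3p) had a mean of −1.31 in PYS, against 1.81 in L-1210 and 1.39 in M1. It was flagged because all 3 PYS replicates lay below all 6 replicates of the leukaemia lines. Changed arm differences were common in PYS. Of the 8 other hairpins, 37.5% were called between PYS and L-1210 and 62.5% between PYS and M1. miR-324 was fitted together with the others, but it was chosen for its difference. That difference was therefore not tested as a result and no p is given.

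The rat-named miR-345-3p assay, which is outside the 4 arms, amplified in all 3 CT-BM replicates at a mean Ct of 27.9. It stands out because the mouse-named miR-345-3p assay gave no signal in CT-BM replicates 2 and 3. In replicate 1 the mouse-named assay had no value.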

How the results depend on the processing

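The lower bounds against CT-BM move with the Ct limit by construction. With a limit of 32 the log2 bounds for L-1210, M1 and PYS were 8.59, 7.18 and 9.24 for miR-324-3p and 2.19, 2.11 and 1.88 for miR-345-3p, and the arm differences of CT-BM at most −5.21 (miR-324) and −6.40 (miR-345). With a limit of 40 they were 16.59, 15.18 and 17.24, then 10.19, 10.11 and 9.88, and −13.21 and −14.40. With snoRNA202 alone, the L-1210 change over CT-BM was −0.10 ± 0.21 for miR-324-5p and −0.32 ± 0.27 for miR-345-5p (SE), neither of them called. This control gave bounds in L-1210 of 9.96 for miR-324-3p and 3.56 for miR-345-3p. In PYS it gave 11.66 for miR-324-3p, 4.72 for miR-324-5p and −1.24 for miR-345-5p. With snoRNA135 alone, the PYS values were 11.22 and 4.39 (miR-324-3p and -5p) and 3.86 and −1.52 (miR-345-3p and -5p). MammU6 alone gave, in the same arm order, 13.43, 3.28, 7.03 and 2.78 in L-1210 and 13.85, 6.82, 6.48 and 0.58 in PYS. Scaling by the common mean, over assays that all 12 replicates detected, gave 12.68, 2.66, 6.28 and 2.44 in L-1210 and 13.10, 6.21, 5.74 and 0.24 in PYS. In M1 it gave 10.70 for miR-324-3p, 1.10 for miR-324-5p and 1.47 for miR-345-5p. Quantile normalization gave 13.09, 3.24, 6.94 and 3.08 in L-1210, 11.75, 2.94, 8.39 and 2.89 in M1, and 13.25, 6.62, 3.88 and 0.72 in PYS. It also changed arm differences, to 2.04 in L-1210 and 1.00 in M1 for miR-324, and to −3.49 in M1, −5.83 in PYS and −9.28 in CT-BM for miR-345. Their changes became 1.04 (L-1210 over M1) and −2.18 (PYS over M1) for miR-324, and −0.71 (PYS over L-1210), −2.34 (PYS over M1) and −1.64 (L-1210 over M1) for miR-345. The causes were not tested. Single controls and the common mean left the arm differences as they were, since scaling cancels. The rat-named 3p assay, added after seeing the data, gave miR-345 arm differences of −2.98 in L-1210, −2.13 in M1, −1.50 in PYS and −2.55 in CT-BM, a PYS over M1 change of 0.63, and 3p changes over CT-BM of 0.83, 1.27 and 0.34 in L-1210, M1 and PYS.

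Requiring detection in all 12 replicates tests fewer assays and called 98 (L-1210 over CT-BM), 103 (M1 over CT-BM), 124 (PYS over CT-BM), 120 (PYS over L-1210), 115 (PYS over M1) and 87 (L-1210 over M1), against 227, 226, 284, 258, 250 and 171 with the filter used. With no filter, assays at the limit in both groups entered, and 473, 487, 401 and 349 were called for L-1210 and M1 over CT-BM, PYS over M1 and L-1210 over M1. The share of calls that were higher moved with the scaling, from 14.9% to 63.9% in L-1210, 24.5% to 55.7% in M1 and 37.8% to 66.3% in PYS over CT-BM (33.0%, 36.3% and 50.7% with the 3 controls). Between lines it ranged from 47.2% to 74.9% (PYS over L-1210, 62.4%), 45.8% to 76.3% (PYS over M1, 62.8%) and 25.3% to 78.1% (L-1210 over M1, 45.0%). Hairpins with a changed arm difference numbered 6, 6 and 5 under quantile normalization for L-1210 over CT-BM, M1 over CT-BM and L-1210 over M1, against 2, 1 and 0, and 2 in place of 4 for PYS over L-1210 with -3p and -5p names alone. Leaving out a replicate gave 1 to 2 for M1 over CT-BM (2 without CT-BM replicate 2), 0 to 1 for L-1210 over M1 (1 without L-1210 replicate 1), and 2 to 5 for PYS over L-1210 (2 without L-1210 replicate 1, PYS replicate 2 or PYS replicate 3, and 5 without L-1210 replicate 2), all with miR-324 and miR-345 among the hairpins. Same-numbered replicates were not paired by the labels or by the check of their deviations. With replicate number as a block, 229, 225, 283, 256, 250 and 173 assays were called, in the order of comparisons given first above.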
